A study of Mus musculus with 8 samples.

Results

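The genes described here are the survival and death genes of the Bcl2 family, namely Bcl2, Bcl2l1, Mcl1, Bax, Bak1, Bcl2l11, Bbc3 and Pmaip1, with the cell cycle inhibitors Cdkn1a and Cdkn1b. They were chosen by gene symbol as a set with known roles, with earlier results of these data known. All 10 were found among the 23997 genes of the table. Their RNA was measured in Treg cells (regulatory T cells, which restrain immune responses under the transcription factor Foxp3), sorted from C57BL/6 mice as CD4+YFP+ cells of spleen and draining lymph nodes. Bcl11b-deficient cells had the genotype Bcl11b f/f Foxp3-YFP-Cre/+ (4 columns), and Bcl11b-sufficient cells had the genotype Bcl11b f/+ Foxp3-YFP-Cre/+ (4 columns). Both groups thus carried the Cre fusion on 1 Foxp3 allele and at least 1 floxed copy of Bcl11b, which encodes a DNA-binding regulator of T cell identity. The sufficient cells had 1 floxed copy, open to deletion by Cre, beside 1 unfloxed copy. They are therefore not a control with Bcl11b intact. Cre is made where the fused Foxp3 allele is active, and as Foxp3 lies on the X chromosome such animals also hold Treg cells that use the wild-type allele and escape deletion. Those cells make no YFP, and sorting for YFP selects against them. The animals' age was not given in the sources used here. At issue is which genes of this set differ between Treg cells with both copies of Bcl11b floxed and those with 1.

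The 8 columns, called by their replicate numbers, were treated as 5 libraries. In 3 pairs (1 with 3 and 2 with 4 among the deficient, 1 with 3 among the sufficient) the spread between columns was only 1.13 to 1.24 times the sampling noise of the reads, as against 1.76 to 2.72 times in the other 9 pairs of columns from 1 group. Columns of such a pair differed by about the sampling noise and entered the tests as their average, giving 2 deficient libraries and 3 sufficient ones. Whether they are repeat runs of the same libraries is not given in the labels, and each n, SD and p below depends on that choice. Depth was approximately 2.68e+06 to 1.18e+07 fragments per column. Separate animals are not named in the labels, and the p-values therefore rest on the spread among these libraries, which may be technical. Bcl11b was at 21.7 ± 3.83 FPKM in deficient libraries (SD, n = 2) and at 42.7 ± 3.68 FPKM in sufficient libraries (SD, n = 3). The deficient mean was thus 50.8% of the sufficient mean. Foxp3 averaged 153 FPKM in deficient libraries and 187 FPKM in sufficient libraries, and Cd3e and Cd4 were higher than Foxp3 in every library. Of the 279 genes called among 10614 tested, 73.5% were higher in deficient libraries, and 91.9% of 371 were after scaling the libraries to equal totals, which moved the median log2 fold change of all genes to 0.18.

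Markers of other cells differed between the same libraries. The 21 macrophage and monocyte markers of the table summed to 426 to 809 FPKM in deficient libraries and to 29.6 to 108 FPKM in sufficient libraries, and 12 of the 19 tested were called higher. The 14 NK and CD8 T cell markers summed to 378 to 429 FPKM in deficient libraries and to 28.3 to 57.3 FPKM in sufficient libraries, with 6 of 12 tested called higher. Of these sums Fcer1g, which macrophages also express, made up 247 and 283 FPKM in deficient libraries. Without Fcer1g and Tyrobp, another gene shared with macrophages, the sums were 66.3 to 108 FPKM in deficient libraries and 25.9 to 39.9 FPKM in sufficient libraries. Klrd1, Gzma, Klrb1b and Klrk1, all called higher, had log2 fold changes of 3.60, 3.30, 2.27 and 1.78 (limma adjusted p = 0.00782, 0.0259, 0.00959 and 0.0180). Cd8b1, Prf1 and Eomes had log2 fold changes of -0.30, -0.13 and 0.04 (limma adjusted p = 0.285, 0.809 and 0.936). Of the 12 tested, 10 had positive values and 2 negative ones. Dendritic cell markers had 2 of 7 tested called higher. Of B cell markers 1 of 4 tested, Ly6d, was called higher, and 2 of the 4 had negative values. The B cell sums overlapped, at 19.95 to 23.6 FPKM in deficient libraries and 15.5 to 27.6 FPKM in sufficient libraries. Of neutrophil and erythroid markers 0 of 5 and 0 of 4 were called by limma, and also 0 at an unadjusted p under 0.05. Their sums spread widely within the groups. Erythroid sums were 24.95 and 244 FPKM in deficient libraries, against 0.835, 134 and 27.8 FPKM in sufficient ones, and all 4 tested markers had positive values. Neutrophil sums were 8.84 and 40.9 FPKM, against 3.93, 44.5 and 6.87 FPKM. Treg identity genes summed to 2482 to 2566 FPKM in deficient libraries and to 3488 to 3805 FPKM in sufficient libraries, with 5 of 14 called lower. No marker of these lists was listed at 0 in every library. Their part in the results below was not tested. In bulk samples, fewer cells of a type and less RNA per cell cannot be told apart.

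Bcl2 family proteins decide whether the outer membrane of the mitochondrion is breached. Anti-apoptotic members hold the pore formers Bax and Bak1 inactive, and small BH3-only proteins release them after stress, loss of cytokine or DNA damage. Treg cells depend on Mcl1 and on survival signals from IL-2, and Bcl2l11, which encodes Bim, limits their lifespan. Cdkn1a (p21) and Cdkn1b (p27) bind cyclin-dependent kinases and hold cells before DNA replication. Cdkn1a, Bbc3 (Puma), Pmaip1 (Noxa) and Bax are known targets of the tumour suppressor p53, and Bcl2l11 and Cdkn1b are known targets of FoxO transcription factors.

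Cdkn1a was the only gene of the set that passed the test, at 31.3% of the sufficient level in deficient libraries. All 10 genes passed the filter of a mean of at least 1 FPKM. In limma with Benjamini-Hochberg adjustment over all genes, 1 of the 10 was called lower and 0 were called higher at an adjusted p under 0.05, where 2.63% of all tested genes were called, 0.697% lower and 1.93% higher. At an unadjusted p under 0.05, 4 of the 10 were lower and 1 was higher, against 8.45% and 9.36% of all genes (17.8% in either direction). In 6 of the 10 the library values of the groups did not overlap, 5 of them lower (Bcl2l1, Bax, Pmaip1, Cdkn1a and Cdkn1b) and 1 higher (Bak1), against 17.9% and 18.9% of all tested genes (36.7% in either direction). Because the set was chosen with earlier results of these data known, these counts are no independent test of it. Fold changes are differences of mean log2(FPKM + 1), deficient minus sufficient, and their median was -0.14 for the 10 genes and -0.01 for all tested genes.

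**Figure D1:**
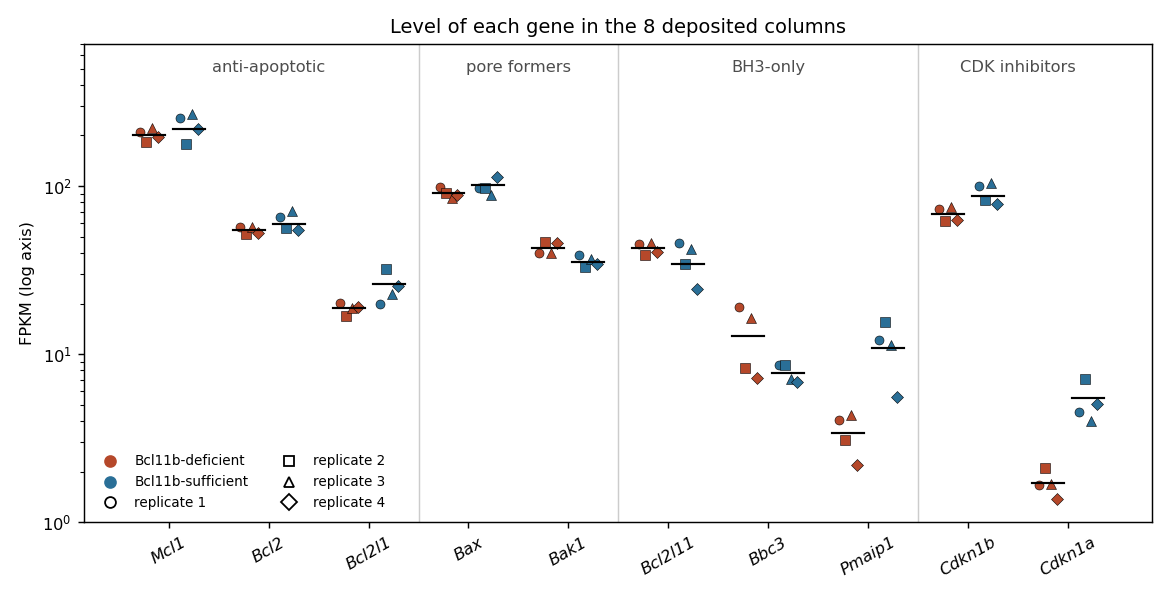
FPKM on a log axis for the 10 genes, ordered by role, in 4 Bcl11b-deficient (left of each pair) and 4 Bcl11b-sufficient columns; symbols give the replicate number and lines the mean over 2 and 3 libraries. Cdkn1a lies at 1.38 to 2.11 FPKM in deficient columns and at 4.01 to 7.08 FPKM in sufficient columns, and Bbc3 is split within the deficient group.

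None of the anti-apoptotic genes passed the test. Mcl1, which encodes a short-lived protein that T cells need at every stage, measured 209, 182, 220 and 196 FPKM in the deficient columns 1 to 4, against 254, 179, 267 and 218 FPKM in the sufficient columns 1 to 4. The deficient values lay inside the sufficient range, with means of 202 ± 18.0 FPKM over deficient libraries and 219 ± 41.0 FPKM over sufficient ones (SD, n = 2 and 3). Its log2 fold change was -0.10 (95% interval -0.50 to 0.30, limma adjusted p = 0.795), and 0.109 after scaling to equal totals. Bcl2, the founding member of the family, measured 56.8, 51.8, 57.3 and 52.3 FPKM in the deficient columns 1 to 4, against 65.4, 55.9, 71.2 and 54.5 FPKM in the sufficient columns 1 to 4. Here too the groups overlapped, and the log2 fold change was -0.12 (95% interval -0.42 to 0.18, limma adjusted p = 0.673), or 0.0895 with equal totals. It was -0.055 with deficient columns 2 and 4 left out and -0.0193 with sufficient columns 1 and 3 left out. Neither interval reached a 2-fold difference.

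Bcl2l1, which encodes Bcl-xL, had the largest difference of the 3 anti-apoptotic genes. It measured 20.0, 16.9, 18.8 and 19.1 FPKM in the deficient columns 1 to 4, against 19.9, 32.1, 22.8 and 25.4 FPKM in the sufficient columns 1 to 4. The averaged libraries did not overlap, although sufficient replicate 1 lay just under deficient replicate 1. Deficient libraries held 18.7 ± 0.989 FPKM (SD, n = 2) and sufficient libraries 26.3 ± 5.41 FPKM (SD, n = 3), and the difference of -0.45 on the log2 scale (SE 0.17) missed the threshold (limma adjusted p = 0.236). The sufficient libraries themselves spread over 21.4, 25.4 and 32.1 FPKM.

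Neither pore former passed the test. Bax measured 98.8, 91.5, 85.4 and 88.2 FPKM in the deficient columns 1 to 4, against 96.8, 97.7, 89.0 and 114 FPKM in the sufficient columns 1 to 4. Only sufficient replicate 4 stood above every deficient column, and the log2 fold change was -0.15 (95% interval -0.43 to 0.13, limma adjusted p = 0.557), or 0.0601 with equal totals. Without sufficient replicate 4 it was -0.0658. Bak1 measured 39.8, 46.6, 39.8 and 45.9 FPKM in the deficient columns 1 to 4, against 38.9, 32.9, 36.8 and 34.5 FPKM in the sufficient columns 1 to 4. Every deficient column lay above every sufficient column, by a small margin, and Bak1 was the only gene of the set with a higher value throughout. Its log2 fold change of 0.28 (SE 0.12) missed the threshold over all genes (limma adjusted p = 0.266), and it was 0.18 without deficient replicates 2 and 4. In the GENCODE M21 annotation Bak1 shares 614 exon bases with Ggnbp1 on the opposite strand, Cdkn1a shares 273 with AC167363.2 and Bcl2 shares 558 with D630008O14Rik, likewise on the opposite strand. Bax shares 192 exon bases with Gm45808 on its own strand, where strand cannot separate them. Reads of partners on opposite strands cannot be told apart unless strand was used in counting, which was not given in the sources used here.

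Among the 3 BH3-only genes, 1 had lower and 2 had higher mean FPKM in deficient libraries, and none passed the test. Pmaip1, whose protein Noxa neutralises Mcl1, measured 4.04, 3.08, 4.32 and 2.197 FPKM in the deficient columns 1 to 4, against 12.1, 15.6, 11.4 and 5.57 FPKM in the sufficient columns 1 to 4. All deficient columns were below all sufficient columns, and sufficient replicate 4 was less than the other sufficient columns by a wide margin. The means were 3.41 ± 1.09 FPKM in deficient libraries (SD, n = 2) and 10.95 ± 5.04 FPKM in sufficient libraries (SD, n = 3), so the fitted difference was the most negative of the set, at -1.36 on the log2 scale (SE 0.37). With a 2.79-fold range among sufficient libraries it missed the threshold (limma adjusted p = 0.127). It passed without sufficient replicate 4 (log2 fold change -1.74, limma adjusted p = 0.0357, range over 21 alternatives 0.00433 to 0.491).

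Bbc3, whose protein Puma binds all anti-apoptotic members, was split within the deficient group. It measured 19.1, 8.30, 16.4 and 7.24 FPKM in the deficient columns 1 to 4, against 8.58, 8.67, 7.07 and 6.80 FPKM in the sufficient columns 1 to 4. The averaged library of deficient replicates 1 and 3 was 2.29 times that of replicates 2 and 4, which lay within the sufficient range. The difference was 0.55 on the log2 scale (SE 0.30) and did not pass (limma adjusted p = 0.384). With deficient columns 1 and 3 left out it was 0.0056 (limma adjusted p = 0.995), and with columns 2 and 4 left out instead it was 1.10 (0.0982), so the value rests on columns 1 and 3. The macrophage marker sum was 809 FPKM in the library of deficient replicates 1 and 3 and 426 FPKM in that of replicates 2 and 4. In the same order, the erythroid (24.95 and 244 FPKM), neutrophil (8.84 and 40.9 FPKM) and NK and CD8 T cell sums (378 and 429 FPKM) ran the other way. The dendritic cell sum was 183 and 178 FPKM. The part of these markers in the Bbc3 split was not tested.

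Bcl2l11, whose protein Bim removes self-reactive and cytokine-starved lymphocytes, measured 45.0, 38.6, 45.9 and 40.6 FPKM in deficient replicates 1 to 4. In sufficient replicates 1 to 4 it measured 45.7, 34.3, 42.1 and 24.3 FPKM. The groups overlapped, since sufficient replicates 1 and 3 reached the deficient range while replicate 4 was lowest. The log2 fold change was 0.34 (95% interval -0.19 to 0.88, limma adjusted p = 0.480). Leaving out sufficient column 4 gave 0.12, and leaving out columns 1 and 3 of that group gave 0.54.

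**Figure D2:**
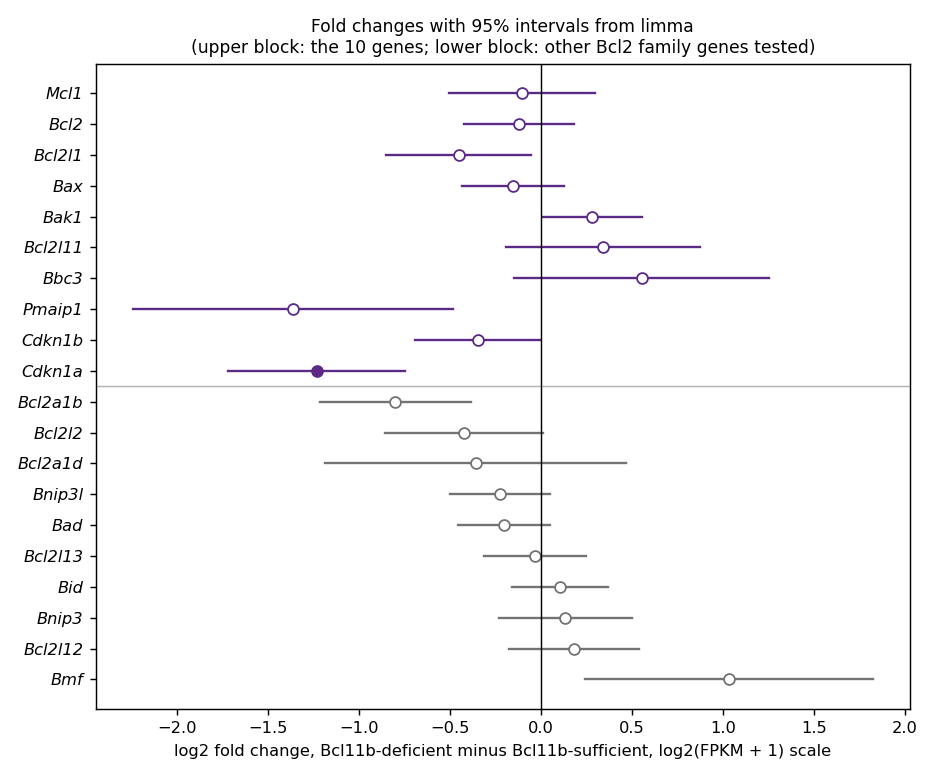
Log2 fold change (mean log2(FPKM + 1), deficient minus sufficient) with the 95% interval from limma, for the 10 genes (upper block) and the 10 tested genes of the list of other Bcl2 family members (lower block); filled points have an adjusted p under 0.05. Cdkn1a is the only filled point, and Pmaip1 has the most negative value at -1.36 with a wider interval.

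Cdkn1a, on chromosome 17 (GRCm38, 29090976 to 29100727, plus strand), fell in deficient libraries. It measured 1.67, 2.11, 1.69 and 1.38 FPKM in the deficient columns 1 to 4, against 4.55, 7.08, 4.01 and 5.02 FPKM in the sufficient columns 1 to 4. The lowest sufficient column was 4.01 FPKM and the highest deficient column 2.11 FPKM, so the groups were apart in all 8 columns. Deficient libraries averaged 1.71 ± 0.0479 FPKM (SD, n = 2) and sufficient libraries 5.46 ± 1.45 FPKM (SD, n = 3), a log2 fold change of -1.23 (SE 0.21, 95% interval -1.72 to -0.74, limma adjusted p = 0.0341). Of the 10614 tested genes, 49 had a more negative value. The exact two-sided permutation test of its FPKM gave p = 0.1, and with 10 possible assignments it can give no smaller one.

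The Cdkn1a call rests on few reads and on most of the libraries. At the estimated depths its FPKM correspond to approximately 10, 14, 38 and 25 fragments in deficient replicates 1 to 4 and 25, 80, 96 and 123 in sufficient replicates 1 to 4, taking the longest annotated transcript of 2080 bases. The call ended without sufficient replicate 2 (limma adjusted p = 0.0593), without sufficient replicate 4 (0.0772), without the deficient library of columns 1 and 3 (0.205) or that of columns 2 and 4 (0.175), with no filter on low values (0.235) and with equal totals (0.0619). It held without the sufficient library of columns 1 and 3 (0.0368), and the adjusted p ranged from 0.00138 to 0.235 over 20 alternatives. Where the call ended, the log2 fold change stayed between -1.27 and -1.06.

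The sequence before each Cdkn1a start is shown because p53 acts on this gene through a response element, and that of Cdkn1b, the other cell cycle inhibitor, is shown beside it. RefSeq (GRCm38.p6) gives 2 starts for Cdkn1a and 1 for Cdkn1b, each with the 250 bases before it on the plus strand, 5′ to 3′. Capitals mark a match to the p53 response element in the upstream Cdkn1a window (chr17:29090729-29090978) and the GC box GGGCGG in the downstream Cdkn1a window (chr17:29093519-29093768) and in Cdkn1b (chr6:134920151-134920400).
Cdkn1a, upstream start: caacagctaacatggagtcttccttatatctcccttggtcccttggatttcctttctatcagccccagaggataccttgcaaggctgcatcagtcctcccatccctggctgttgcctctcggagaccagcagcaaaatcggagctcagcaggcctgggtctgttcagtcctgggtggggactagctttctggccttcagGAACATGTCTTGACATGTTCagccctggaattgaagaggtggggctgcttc
Cdkn1a, downstream start: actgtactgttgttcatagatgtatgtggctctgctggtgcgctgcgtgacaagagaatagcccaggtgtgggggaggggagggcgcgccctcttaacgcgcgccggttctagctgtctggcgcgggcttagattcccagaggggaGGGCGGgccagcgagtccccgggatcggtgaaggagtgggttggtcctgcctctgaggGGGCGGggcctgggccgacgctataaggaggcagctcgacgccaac
Cdkn1b: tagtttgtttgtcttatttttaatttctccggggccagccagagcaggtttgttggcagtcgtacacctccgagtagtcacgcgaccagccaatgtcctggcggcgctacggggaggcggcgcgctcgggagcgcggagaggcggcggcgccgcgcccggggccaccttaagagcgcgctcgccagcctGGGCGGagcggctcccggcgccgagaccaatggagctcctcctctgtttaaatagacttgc

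The upstream Cdkn1a window held the 20 bases GAACATGTCTTGACATGTTC at positions -51 to -32 from the start, a near-palindrome. It matches the p53 response element, searched by its published 20-base consensus with no gap and at most 1 mismatch, a tolerance set after the window had been read. Such a match was in 0.0761% of the 32851 RefSeq windows of this length, 25 in all. The Cdkn1a sequence itself needs the 1 mismatch, so this share does not measure how unusual the Cdkn1a match is. Of the 25 genes with a match, 13 were in the table and 6 were tested, and Cdkn1a was the only call. Ccng1 and Rps27l, both known p53 targets, were among them, Ccng1 at 46.7 FPKM in deficient libraries and 44.0 FPKM in sufficient libraries (limma adjusted p = 0.842) and Rps27l at 87.3 and 83.8 FPKM (0.890). Calhm2 was at 10.5 and 7.35 FPKM (0.139), Mthfd1 at 16.9 and 21.4 FPKM (0.215) and Bank1 at 2.54 and 1.83 FPKM (0.550). At an unadjusted limma p under 0.05, 1 of the 6 was higher and 2, with Cdkn1a, were lower, against 9.36% and 8.45% of all tested genes. The 9 genes of the set with any window had 15 in all, up to 3 a gene. GGGCGG, on either strand, was in 10 of the 15, from 7 genes, and in 32.7% of all windows. The FoxO motif GTAAACA, on either strand, was in 2 of the 15, from Bcl2l11 and Bbc3, and in 3.17% of all windows. CCAAT was in 4 of the 15, from Bcl2l11, Bbc3 and Cdkn1b (33.8% of all), and TATAAA in 0 of the 15 (12.4% of all), both strands read. Windows of 1 gene can overlap and are not independent. The Cdkn1a start in use cannot be read from gene-level FPKM.

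Cdkn1b was far more abundant than Cdkn1a and differed less. It measured 73.3, 61.7, 75.5 and 63.0 FPKM in the deficient columns 1 to 4, against 82.1, 104 and 78.6 FPKM in the sufficient columns 2 to 4 and 102 FPKM in the average of sufficient columns 1 and 3. Each deficient column was below each sufficient column, the closest being deficient replicate 3 and sufficient replicate 4. Deficient libraries averaged 68.4 ± 8.52 FPKM (SD, n = 2) and sufficient libraries 87.5 ± 12.6 FPKM (SD, n = 3), and the difference of -0.35 on the log2 scale (SE 0.15) missed the threshold (limma adjusted p = 0.277). It was -0.22 without deficient replicates 2 and 4 and -0.14 with equal totals. With all 8 columns taken as separate libraries, Cdkn1b and Pmaip1 passed beside Cdkn1a (limma adjusted p = 0.0319, 0.00697 and 0.00138), but that fit counts near-identical columns as replicates.

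By level, which FPKM gives per length, the order of the set was nearly the same in both groups. In deficient libraries it ran Mcl1, Bax, Cdkn1b, Bcl2, Bak1, Bcl2l11, Bcl2l1, Bbc3, Pmaip1 and Cdkn1a, and of these neighbours only the ranges of Bak1 and Bcl2l11 overlapped. Sufficient libraries had the same order except that Pmaip1 (10.95 FPKM) stood before Bbc3 (7.77 FPKM). There the ranges of Bax and Cdkn1b, Bak1 and Bcl2l11, Bcl2l11 and Bcl2l1, Pmaip1 and Bbc3, and Bbc3 and Cdkn1a overlapped. Mcl1 made up 73.4% ± 0.537 of the summed FPKM of the 3 anti-apoptotic genes in deficient libraries (SD, n = 2) and 71.5% ± 3.98 in sufficient libraries (SD, n = 3).

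Ratios between the genes are given as descriptions, with no test. The summed anti-apoptotic FPKM over that of pore formers and BH3-only genes was 1.46 and 1.39 in the deficient libraries and 1.80, 1.41 and 1.61 in the sufficient libraries, which overlap. Bcl2l1 over Bcl2 also overlapped, at 0.340 and 0.346 in deficient libraries and 0.313, 0.573 and 0.465 in sufficient libraries. So did Bcl2l11 over Bbc3, at 2.56 and 5.10 against 5.61, 3.96 and 3.58. The shares of Bcl2l11 and of Bbc3 in the summed BH3-only FPKM overlapped as well. Bcl2 over Bcl2l11 was 1.26 and 1.32 in deficient libraries, below the 1.56, 1.63 and 2.24 of sufficient libraries. Bax over Bak1 was 2.31 and 1.94 in deficient libraries, against 2.45, 2.97 and 3.30 in sufficient libraries. The clearest separations involved the low genes. Bcl2l11 over Pmaip1 was 10.9 and 15.0 in deficient libraries and 3.74, 2.21 and 4.37 in sufficient libraries. Pmaip1 made up 6.20% and 5.28% of the summed BH3-only FPKM in deficient libraries, against 18.5%, 26.6% and 15.2% in sufficient libraries. Cdkn1b over Cdkn1a was 44.3 and 35.7 in deficient libraries and 23.8, 11.6 and 15.6 in sufficient libraries.

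**Figure D3:**
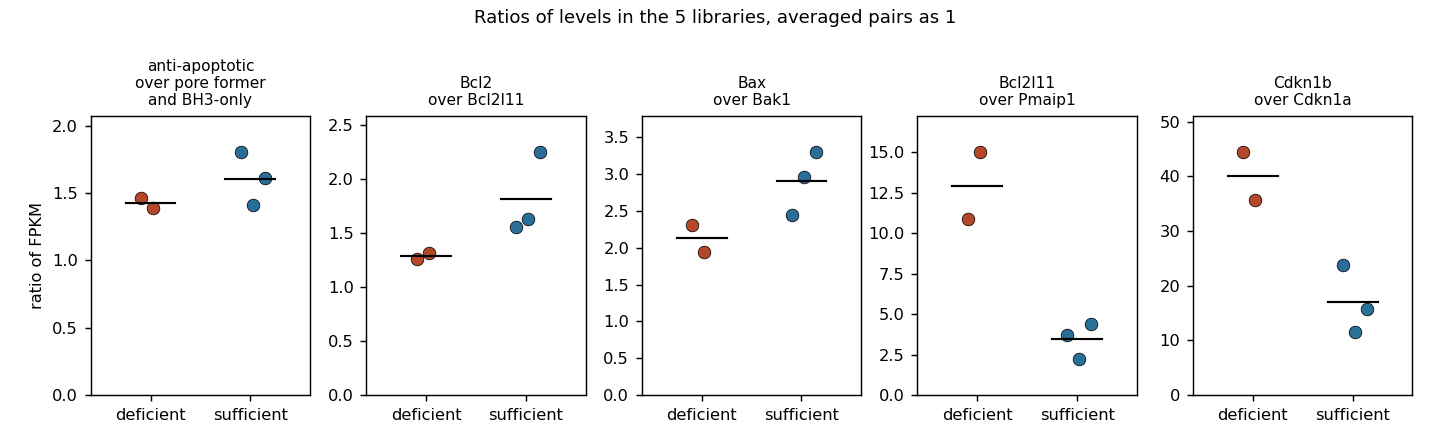
Ratios of FPKM between genes or summed genes in the 2 deficient (left in each panel) and 3 sufficient libraries, each averaged pair as 1; points are libraries, lines are means and each axis starts at 0. The summed anti-apoptotic ratio overlaps between the groups, while Bcl2l11 over Pmaip1 is 10.9 and 15.0 in deficient libraries and at most 4.37 in sufficient libraries.

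Other Bcl2 family genes gave no call. Of 18 listed, all in the table, 10 were tested, and limma called 0 higher and 0 lower (1 and 1 at an unadjusted p under 0.05), with a median log2 fold change of -0.12. Bcl2a1b, an anti-apoptotic gene induced by NF-kB, measured 40.3 ± 6.06 FPKM in deficient libraries (SD, n = 2) and 71.2 ± 13.05 FPKM in sufficient libraries (SD, n = 3), with an adjusted p of 0.0711. Its near-identical copies Bcl2a1a and Bcl2a1d can share reads with it, so these levels are uncertain. Bcl2a1a, below the filter, was at 1.85 and 1.61 FPKM in deficient libraries, while among sufficient libraries it had a value (0.255 FPKM) only in column 4 and was otherwise listed at 0. Bcl2a1d averaged 9.999 FPKM in deficient libraries and 13.8 FPKM in sufficient libraries, which overlapped. Bmf, a BH3-only gene, measured 5.65 ± 1.10 FPKM in deficient libraries and 2.43 ± 1.47 FPKM in sufficient libraries (adjusted p = 0.178). Bcl2l2, which encodes Bcl-w, was at 1.56 against 2.45 FPKM and Bnip3l, a mitophagy receptor, at 45.1 against 52.7 FPKM in deficient and sufficient libraries (adjusted p = 0.293 and 0.375).

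Downstream of the mitochondrion, 17 of 17 apoptosome and caspase genes were tested and limma called 0 higher and 0 lower (2 and 1 at an unadjusted p under 0.05, median 0.02). The initiator Casp9 measured 10.03 ± 1.23 FPKM in deficient libraries and 5.97 ± 1.18 FPKM in sufficient libraries (adjusted p = 0.103), and Apaf1, the scaffold that activates it, 10.5 ± 0.850 and 7.73 ± 0.770 FPKM (adjusted p = 0.178). In both genes the deficient libraries lay above the sufficient ones, as in 3 of the 17 genes of the list and 18.9% of all tested genes. Birc2, an inhibitor of apoptosis protein, was at 35.7 FPKM in deficient libraries and 43.5 FPKM in sufficient libraries, and the nuclease gene Endog at 2.65 and 4.08 FPKM (adjusted p = 0.216 and 0.348). Of 13 death receptor genes, all tested, 0 were called higher and 0 lower by limma (2 and 1 at an unadjusted p under 0.05, median 0.01). Tnfrsf10b, the mouse receptor for the death ligand Trail, measured 2.74 ± 0.0636 FPKM in deficient libraries and 4.57 ± 0.347 FPKM in sufficient libraries (adjusted p = 0.0991). The ligand itself, Tnfsf10, measured 24.3 and 18.3 FPKM, Tnfrsf1a 22.5 and 17.5 FPKM and Fas 35.8 and 40.2 FPKM in deficient and sufficient libraries (adjusted p = 0.264, 0.266 and 0.571).

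The other p53 targets gave no call beside Cdkn1a. The list, which also holds Trp53 itself, had 25 of 29 members tested, and limma called 0 higher and 0 lower (2 and 2 at an unadjusted p under 0.05, median -0.03). Tnfrsf10b and Apaf1, counted above, had the first and the third lowest adjusted p. Mdm4, an inhibitor of p53, measured 79.4 FPKM in deficient libraries and 52.8 FPKM in sufficient libraries, and the kinase gene Plk3 12.6 and 18.8 FPKM (adjusted p = 0.134 and 0.186). FoxO genes and targets likewise gave 0 higher and 0 lower of 21 tested (1 and 1 at an unadjusted p under 0.05, median 0.03). Bcl6, a transcriptional repressor, measured 17.5 and 13.7 FPKM and Sesn3, a stress-response gene, 61.3 and 49.2 FPKM in deficient and sufficient libraries (limma adjusted p = 0.192 and 0.281). Gadd45b and Irs2 had values of -0.91 and -1.11 on the log2 scale (adjusted p = 0.267 and 0.285). Like Bbc3, they were split between the deficient libraries, with Gadd45b at 44.8 and 20.7 FPKM and Irs2 at 9.84 and 2.78 FPKM.

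The lower Cdkn1a came with no call among other cell cycle genes. Of 25 listed CDK inhibitors and G1 genes 23 were tested, and limma called 0 higher and 0 lower (2 and 0 at an unadjusted p under 0.05, median 0.14). Ccne1, the cyclin that starts DNA replication, measured 9.91 ± 0.397 FPKM in deficient libraries and 6.51 ± 1.35 FPKM in sufficient libraries, and Ccnd1 1.55 and 0.656 FPKM (adjusted p = 0.159 and 0.186). E2f1 measured 5.36 and 3.94 FPKM and Rbl2, a member of the Rb family, 48.8 and 41.7 FPKM in deficient and sufficient libraries (adjusted p = 0.302 and 0.335). These 4 genes were named for the lowest adjusted p of the list, and in each the deficient libraries were all above the sufficient ones. Over the 23 tested genes of the list this was so in 7, and the deficient libraries were all below in 1. The shares among all tested genes were 18.9% and 17.9%.

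Genes of the cytokine axis that feeds survival signals to Treg cells held 1 call. Of 16 tested, 1 was higher and 0 lower in limma (1 and 4 at an unadjusted p under 0.05, median -0.15). Pim2, a kinase that supports lymphocyte survival, rose to 42.9 ± 0.551 FPKM in deficient libraries (SD, n = 2) against 21.5 ± 1.89 FPKM in sufficient libraries (SD, n = 3; adjusted p = 0.0113). Cish, a feedback gene of STAT5, measured 82.9 and 128 FPKM, Il2ra, the alpha chain of the IL-2 receptor and also on the Treg identity list, 112 and 179 FPKM, and Gfi1, a transcriptional repressor, 13.9 and 19.9 FPKM in deficient and sufficient libraries (limma adjusted p = 0.0771, 0.0783 and 0.104). Of 18 genes that set the turnover of Mcl1, Bim or p27, 17 were tested and limma called 0 higher and 0 lower (1 and 0 at an unadjusted p under 0.05, median -0.02). Cul1, the scaffold of the ligase that degrades p27, measured 43.0 and 35.9 FPKM, the 14-3-3 gene Ywhaz 108 and 135 FPKM, Huwe1, a ligase of Mcl1, 84.1 and 69.9 FPKM and the deubiquitinase gene Usp9x 15.9 and 13.3 FPKM in deficient and sufficient libraries (limma adjusted p = 0.243, 0.295, 0.335 and 0.405).

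**Figure D4:**
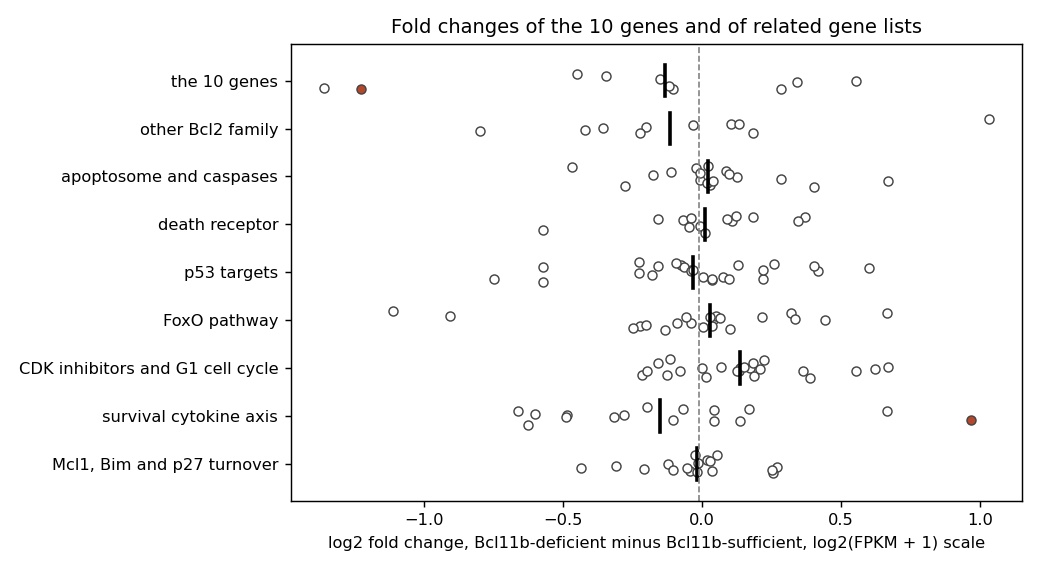
Log2 fold change (mean log2(FPKM + 1), deficient minus sufficient) of each tested gene in the set and in 8 related lists; points are genes with a random vertical offset, filled where the adjusted p is under 0.05, thick lines are list medians and the dashed line is the median of all tested genes at -0.01. Filled points are Cdkn1a at -1.23 and Pim2 at 0.97.

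The genes whose pattern over the 5 libraries was most like that of Cdkn1a were sought among the 6565 genes that averaged 10 FPKM or more, by root mean square distance of centred log2(FPKM + 1) values. They were Crem, a cyclic AMP responsive regulator (distance 0.18), Ccr7, a lymph node homing receptor (0.19), and Lrig1, a regulator of growth factor receptors (0.20). Crem measured 5.28 and 5.71 FPKM in the deficient libraries, against 13.7, 16.9 and 10.6 FPKM in the sufficient ones. Ccr7 measured 144 FPKM in both deficient libraries, against 218, 315 and 252 FPKM in the sufficient ones. Lrig1 measured 26.6 and 23.7 FPKM in the deficient libraries, against 57.4, 58.9 and 55.1 FPKM in the sufficient ones. As in Cdkn1a, sufficient replicate 2 was the highest library for each of the 3, though Lrig1 differed little among the sufficient libraries. The 3 genes were picked for their likeness over these libraries, so a shared pattern is no separate result. They are given as a description of these libraries.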

How the data were processed

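RNA sequencing of sorted CD4+YFP+ Treg cells was deposited by the authors as 1 table of FPKM, a unit taken from the table's name and its values. Per the labels' protocols, libraries were made with a stranded total RNA kit. The submitters' processing notes name the mm10 build beside STAR 2.5.1, Cuffdiff 2.2.1 and Cuffnorm 2.2.1. The annotation, and any scaling between libraries, was not given in the sources used here. In all, of 16 value columns, 8 matched samples by name and 8 were not used. FPKM are relative within a library, so abundant transcripts move all other values.

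Depth was estimated from low FPKM (up to 1) of genes with a single GENCODE M21 transcript, where a fragment has a fixed worth, and is approximate. Columns of a group whose log ratios spread by less than 1.5 times the sampling noise, at 150 to 500 reads, were averaged. The test was limma 3.58.1 (R 4.3.3) on log2(FPKM + 1), for genes averaging 1 FPKM or more over the libraries (mean-variance trend, groups as the only term, two-sided, Benjamini-Hochberg adjustment over all genes, threshold 0.05); the pseudocount of 1 understates changes of low genes. The procedure was also run on simulated data, in which only genes well above the level of Cdkn1a were changed. That run therefore does not cover calls of genes as low as Cdkn1a. Exact permutation tests used scipy 1.17.1.

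The 10 genes and all lists were chosen with earlier results of these data known. Of each related list, up to 4 genes with the lowest adjusted p are named, and for the called gene the 3 with the most similar profile. Ccng1, Rps27l, Calhm2, Mthfd1, Bank1, Trp53, Bcl2a1a, Bcl2a1d, Foxp3, Cd3e, Cd4 and the markers of other cells are named outside that rule. Alternatives were the pseudocount, the filter, scaling, robust empirical Bayes, unmerged columns, a replicate block and leaving out each column or library. Sequences are from RefSeq (GRCm38.p6), with windows for 9 of the 10 genes.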

Additional observations from a re-analysis of the deposited data

How the results depend on the processing

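The number of genes called over all tested was 279. It was 182 with a pseudocount of 0.1, 27 with no filter on low values, 113 with a mean of at least 5 FPKM and 1851 with all 8 columns taken as separate libraries, and it ran from 8 to 297 when a column or a library was left out. The cause was not tested. The number of members called lower was 1 and became 0 with no filter, 0 with a mean of at least 5 FPKM, where Cdkn1a was not tested, 0 with equal totals and 3 with the 8 columns as separate libraries; it was 0 to 1 when a column or a library was left out, and the 1 call without sufficient replicate 4 was Pmaip1 in place of Cdkn1a. The number called higher was 0 in every alternative. Small differences changed sign. The log2 fold change of Mcl1 was 0.109 with equal totals and 0.034 with quantile normalization, and ran from -0.242 (without sufficient replicate 2) to 0.0293 (without sufficient replicates 1 and 3) when a column or library was left out. With equal totals that of Bcl2 was 0.0895 and that of Bax 0.0601. None of these was called in any fit. The other 7 members kept their direction in all 21 alternatives (20 for Cdkn1a), Cdkn1a between -1.59 and -1.06 and Pmaip1 between -1.74 and -1.08. With a single deficient library left, that library is assumed to vary like the others.

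Replicate numbers are shared by the groups, and same-numbered columns deviated together only weakly (correlations of 0.0275, 0.0581, 0.126 and 0.0906 for numbers 1 to 4). Deficient columns 2, 3 and 4 correlated best with the sufficient column of their own number. Deficient column 1 correlated best with sufficient column 2 (0.13). With a replicate block on the 8 columns 1418 genes were called, and 3 members were called lower, against 1851 and 3 without it. Depth limits Cdkn1a, Pmaip1 and Bbc3 most, with approximately 10, 28 and 42 fragments in their lowest columns, against 137 or more for the other members.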
